A study of Apis mellifera with 18 samples.

Results

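The brain-restricted coding transcripts are 158 transcripts, in 158 genes, that were abundant in every brain pool and scarce in both other tissues of the worker honey bee. They were selected on their own measured levels: a transcript was taken when its lowest value over 5 brain libraries was at least 50 CPM (counts per 1000000 counted fragments of the library) and when its median in the ventriculus and in the Malpighian tubules was each at most 5% of its brain median. Of the 23458 coding transcripts among 28396 counted features, 2189 reached the brain limit, and 167 met both. From these, 9 were left out by name, namely Mrjp1, Mrjp3, Mrjp5, Hbg3, Lop1, nAChRa1, nAChRb1, Dop1 and Oa1. The members were thus 7.22% of the brain-expressed coding transcripts. Because the rule used these values, the contrast of brain with the other tissues is described here and was not tested.

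A nervous system uses genes for transmitter breakdown, synaptic adhesion, ligand-gated channels and second messengers, and some of these genes are low in other organs. At cholinergic synapses, the main excitatory synapses of the insect brain, acetylcholinesterase ends the signal by cleaving acetylcholine, and neonicotinoids such as clothianidin act on the nicotinic receptors of the same synapses. Nitric oxide is another messenger of the insect brain. It is made by nitric oxide synthase and is sensed by soluble guanylyl cyclase, which then makes cyclic GMP.

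Workers of Apis mellifera came from 6 patrilines (P1, P7, P8, P11, P21 and P24) of Colony 36, a patriline being the daughters of 1 drone. At 8 days of age they were fed clothianidin, a neonicotinoid insecticide, at 4.27 ppb in sucrose for 4 h, and were frozen 24 h after feeding. Brain, ventriculus (the midgut) and Malpighian tubules (the excretory organ) were dissected, and equal RNA of 5 workers was pooled for each patriline and tissue, giving 18 libraries. All groups were exposed, unexposed bees were not analysed here, and the labels name tissue and patriline only. A pool stands for 1 patriline of 1 colony, so pool and patriline cannot be told apart. P21 was left out of the rule, and its 3 libraries are shown apart.

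The libraries held 39722329 to 87946924 counted fragments, and between 30.9% and 50.3% of fragments were ambiguous between features and lay on no transcript. Of the 10 neuron names checked, only Para and Syt1 matched, with brain medians of 0.51 and 0.965 CPM, so that list does not mark these pools as brain. The brain pools of P11 and P21 stood apart. The major royal jelly protein (Mrjp) transcripts, best known as products of the hypopharyngeal glands in the head, took 28.1% of counts in P11 and 19.2% in P21, against 0.856% to 3.97% in the other brain pools. Lop1, the long-wavelength opsin of the eye, stood at 9163 CPM in P11 and 3988 CPM in P21, at 1271 CPM in P24 and at 466 to 570 CPM in P1, P7 and P8. The tubule library of P21 held 155 of the 158 members above the level of every other tubule library, as described further on.

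Brain medians of the members ran from 66.2 to 20696 CPM, with a median of 344 CPM. Only 2 members had a brain median of 100 CPM or less, 121 lay above that and up to 1000 CPM, and 35 lay above 1000 CPM. Together they took 14.0% to 19.7% of the counts of a brain pool, and the 10 most abundant made up 49.8% of the summed member level. The whole set took 0.0667% to 0.103% of counts in the ventriculus of the 5 patrilines and 0.155% to 0.368% in their tubules.

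In the ventriculus the median member stood at 0.292% of its brain median, and 122 of the 158 were under 1%. In the tubules it stood at 0.86%, with 91 members under 1%. Both tissues were under 1% for 84 members and under 0.1% for 19. No member was at 0 counts in all 5 libraries of a tissue. In bulk tissue, fewer cells of a type and less RNA per cell cannot be told apart. The lowest of 5 brain libraries was above the highest of the 10 other libraries for 157 members. The same held for 35.7% of all brain-expressed coding transcripts, and nothing is read from this, since the rule used the contrast.

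**Figure D1:**
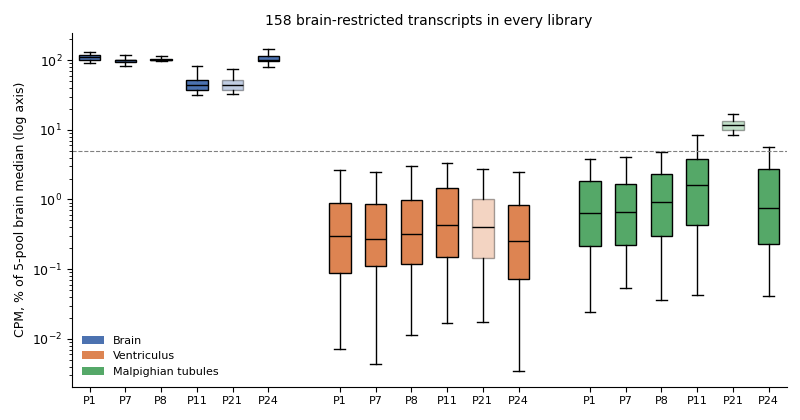
Level of the 158 members in each library, as a percentage of each member's median over 5 brain pools (log axis). Boxes give the quartiles and the median and whiskers the 5th and 95th percentiles over members; pale boxes are P21, and the dashed line is the 5% limit of the rule. The P21 tubule box, with a median of 11.6%, lies above the 5 other tubule boxes, whose medians lie between 0.64% and 1.64%.

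The 10 most abundant members were 9 genes known in the annotation used only by a locus number, and the acetylcholinesterase gene AChE-2. The highest was LOC409077 (XM_392602.7), at 20696, 21270, 21323, 8841 and 18718 CPM in the brains of P1, P7, P8, P11 and P24. In the ventriculus the same transcript stood between 0.239 and 3.21 CPM. In the tubules it was at 0.802, 1.67, 6.52 and 1.6 CPM in P1, P8, P11 and P24, and at 71.1 CPM in P7. As a share of its brain median this was 0.00179% in the ventriculus and 0.00808% in the tubules, with a single tubule pool apart from the rest.

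LOC725960 (XM_001121746.5) was second, with 18637, 18992, 17821, 6449 and 21062 CPM in brain in the same order. Unlike LOC409077 it kept a clear level in the tubules, between 339 and 780 CPM, or 2.28% of its brain median. Its ventriculus values lay between 21.9 and 51.6 CPM, below every tubule value. LOC725131 followed with a brain range of 4869 to 15855 CPM and 0.126% of its brain median in the tubules. The next 7 members, LOC408722, LOC102656354, LOC552734, LOC408695, AChE-2, LOC408935 and LOC408547, had brain medians between 3729 and 8143 CPM. Of these 10, only LOC725960 and LOC552734 exceeded 1% of brain in either tissue.

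Only 8 members carry a gene symbol of another form than a locus number. AChE-2 (NM_001040230.1), the enzyme that cleaves acetylcholine, stood at 4379, 3893, 3974, 1237 and 5757 CPM in the brains of P1, P7, P8, P11 and P24. Its ventriculus values were 2.13 to 3.75 CPM and its tubule values 4.65 to 8.48 CPM. The CPM ranges of the 3 tissues did not overlap, but the rule itself set the brain apart. The gap between ventriculus and tubules depended on the scaling. With TMM scaling the log2 ratio of tubules over ventriculus was 0.21 (edgeR adjusted p = 0.414). The 2 receptor subunits left out by name that share its synapse, nAChRa1 and nAChRb1, had brain medians of 582 and 142 CPM.

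The enzyme that makes nitric oxide and a subunit of the enzyme that senses it were among the members. NOS (NM_001012962.1), nitric oxide synthase, was at 466, 415, 448, 204 and 397 CPM in brain, at 0.739 to 1.55 CPM in the ventriculus and at 1.6 to 5.38 CPM in the tubules. The alpha subunit of the receptor enzyme, sGC-alpha1 (NM_001011650.1), was at 356, 308, 318, 132 and 300.4 CPM in brain. In the ventriculus it received 21 counts over 5 libraries, and its tubule values lay between 0.0242 and 0.469 CPM. Pool by pool, P1 was highest and P11 lowest for both genes. Nothing is read from this: P1 was highest for 50.0% of the members and 24.6% of all brain-expressed coding transcripts. P11 was lowest for 95.6% and 90.0%. Other genes of the pathway, picked after the values were seen, were low in these counts even in brain. The cyclase beta subunits Gycbeta1 and sGCbeta-3 had brain medians of 2.16 and 2.5 CPM summed over 2 and 4 coding transcripts. For, a cyclic GMP-dependent protein kinase, had 7.69 CPM in brain against 21.4 CPM in the tubules. Fragments shared by transcripts of a gene were not counted, so these sums are lower bounds. NOS and sGC-alpha1 have 1 coding transcript each, so the levels are not compared.

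Nrx-1 (NM_001145740.1), a neurexin that links the membranes of a synapse, was at 243, 189, 207, 75.2 and 211 CPM in brain. It kept 2.56, 2.58, 6.44, 9.45 and 18.5 CPM in the ventriculus, 3.11% of its brain median, and 1.15 to 3.51 CPM in the tubules. Hiscl1 (XM_006561078.3), a chloride channel opened by histamine, which is the transmitter of insect photoreceptors, was at 168, 138, 141, 107 and 220.2 CPM in brain and under 1 CPM in all 10 other libraries. Histamine is also an amine, but the names left out as amine receptors did not include histamine channels, so Hiscl1 was kept. LOC551454 (NM_001327957.1) carries the synonym Cava2d3, the name of an auxiliary subunit of voltage-gated calcium channels. It was at 375, 308, 332, 142 and 321 CPM in brain and at 4.0 to 6.35 CPM in the tubules, while its ventriculus values were 0.148 to 0.239 CPM in P1, P8 and P24 and 2.2 and 2.38 CPM in P7 and P11.

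Obp4 (NM_001011589.1), an odorant-binding protein, was the least abundant of the 8, at 87.1, 158, 127, 95.2 and 103 CPM in brain. Its lowest brain pool was P1 and its highest was P7. Y-f (NM_001011635.1), of the yellow family from which the royal jelly proteins derive, was at 3232, 4339, 3627, 1769 and 3506 CPM in brain, and at 4.75 to 16.9 CPM in the 10 other libraries. Its lowest brain pool was P11, as for 151 members and 90.0% of all brain-expressed coding transcripts, and its highest was P7. Mrjp1, in contrast, was highest in P11 at 224054 CPM. Adk1 (NM_001170972.1) was at 245, 282, 239, 123 and 258 CPM in brain, with 1.65% of its brain median in the tubules.

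**Figure D2:**
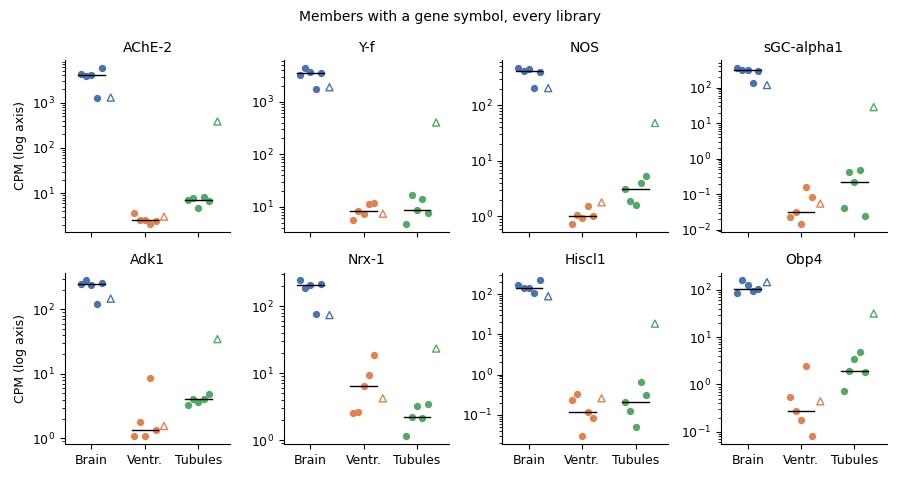
CPM (log axis) of the 8 members with a gene symbol in each tissue. Filled points are P1, P7, P8, P11 and P24 from left to right, bars are their median, and open triangles are P21. In each panel the P21 tubule triangle lies above all 5 filled tubule points, for AChE-2 at 383 CPM against 4.65 to 8.48 CPM.

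The lists of neural genes held few members, but most of their names matched no gene. For example, 43 neuropeptide names matched 8 genes, 25 synaptic vesicle names 4, and 34 channel and receptor names 8. Since 150 members carry only a locus number, these counts do not tell how many members are neural genes. Of 4 matched genes for transmitter enzymes and transporters 1 held a member (AChE-2), of 8 ion channel and receptor genes 1 (Hiscl1), and of 2 adhesion genes 1 (Nrx-1). None of the 8 matched neuropeptide genes, the 4 synaptic vesicle genes, the 4 RNA-binding and transcription genes and the 4 clock and signalling genes held one. Several of these genes were low outside the brain but missed the 50 CPM limit. Fragments shared by transcripts of a gene were not counted, so the levels of genes with many transcripts are lower bounds. Cac, the pore of a presynaptic calcium channel, had 48.0 CPM in brain summed over 33 coding transcripts and 0.0888% of that in the tubules. Tk, the tachykinin precursor, had 15.6 CPM in brain and at most 0.595% of that elsewhere, and brp, a protein of the presynaptic active zone, had 14.0 CPM and at most 0.951%. Dscam, a cell adhesion gene spread over 51 coding transcripts, had 108 CPM in brain and 6.64% of it in the tubules.

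Among the brain pools the members did not keep 1 level. Taking each member relative to its median over the 5 pools, the median member stood at 112% in P1, 100% in P7 and P8, 100% in P24 and 44.1% in P11. The other 2031 brain-expressed coding transcripts stood at 68.4% in P11. Of the members, 151 were lowest in P11, beside 90.0% of all brain-expressed coding transcripts. The P11 shortfall depended on the scaling but was larger for the members each time: without the Mrjp genes in the library total they stood at 59.6% and the others at 92.3%, and with TMM-scaled CPM at 69.0% and 103%. The part of the gland and eye transcripts of P11 in these levels, other than through the library total, was not tested.

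The P21 brain, which the rule did not use, also had a low level, 44.0% for the members against 79.1% for the other brain-expressed transcripts. In this pool the Mrjp transcripts took 19.2% of counts. The 29 transcripts chosen as high in tubules and low elsewhere stood there at 20.7% of their tubule median, against 0.300% in the P11 brain. The part of either in the P21 level was not tested, and no rescaled value was computed. AChE-2 was at 1291 CPM in P21 and at 1237 CPM in P11, and Nrx-1 at 73.5 and 75.2 CPM. Without P11 the spread of the members was smaller. The median coefficient of variation (CV, the SD over the mean) was 0.323 over 5 pools and 0.112 over 4, and for the other brain-expressed transcripts 0.18 and 0.0726.

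**Figure D3:**
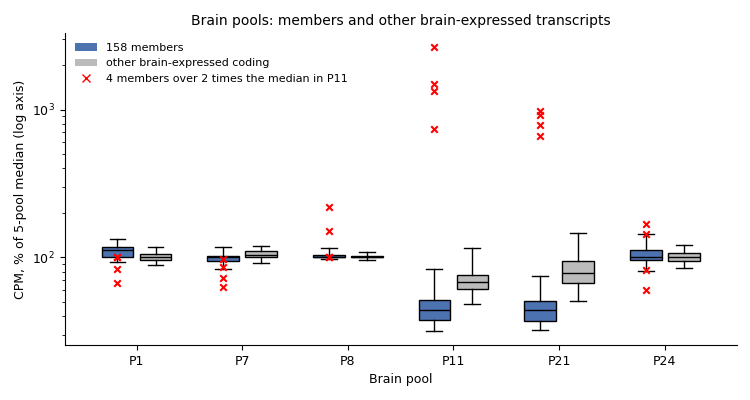
Level in each brain pool as a percentage of the transcript's median over P1, P7, P8, P11 and P24 (log axis), for the 158 members and for the 2031 other brain-expressed coding transcripts. Boxes give quartiles and whiskers the 5th and 95th percentiles; crosses are the 4 members over 2 times their median in P11. Members stand at 44.1% in P11 and 44.0% in P21, below the other transcripts at 68.4% and 79.1%.

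The 4 members that went the other way had the highest CVs of the set, between 1.17 and 1.89. LOC406093 (NM_001011582.1) was at 2687, 2309, 4026, 39787 and 1621 CPM in P1, P7, P8, P11 and P24, and at 24667 CPM in P21. LOC406081 (NM_001011574.1) was at 1699, 1240, 3725, 12580 and 1390 CPM, and at 13470 CPM in P21. In both, P8 was the highest of the pools other than P11 and P21, as it was in Mrjp1, which stood at 20363, 16479, 30466 and 6999 CPM in P1, P7, P8 and P24. LOC550791 (XM_623181.6) was at 458, 535, 547, 7291 and 916 CPM, and at 3655 CPM in P21. LOC409096 (XM_397545.7) was at 75.7, 70.9, 113, 2989 and 163 CPM, and at 1106 CPM in P21. In these 2, P24 came after P11 and P21, as in the opsins Lop1 and Uvop. It did not in the opsin Blop, at 52.2 CPM in P24 against 53.0 in P1 and 59.0 in P7. Thus 4 of the 158 members were high in the P11 and P21 brains, where the gland and eye transcripts were also high. Their source tissue was not tested.

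The fifth highest CV, 0.489, was that of LOC102653763, which ran from 53.5 CPM in P11 to 226 CPM in P24. The 5 members with the lowest CV over 5 pools were LOC413481, LOC409131, LOC551223, LOC724405 and LOC408329, with CVs between 0.0955 and 0.19. This order rests on P11: without it none of the 5 was among the 5 lowest CVs, which were those of LOC410905, LOC726472, LOC413784, LOC724761 and LOC551113 (0.0205 to 0.0405, chosen after their values were seen), and LOC551223 had 0.174. LOC413481 (XM_396925.7) was at 105, 113, 93.2, 89.6 and 107 CPM. LOC551223 (XM_623618.6) was at 50.7, 78.1, 67.7, 66.2 and 63.9 CPM and so did not share the low P11 value. Over all 5 pools, P1 was highest for 79 members, P24 for 47, P7 for 20, P8 for 8 and P11 for 4. As shares of the members these were 50.0%, 29.7%, 12.7%, 5.06% and 2.53%, beside 24.6%, 23.8%, 37.0%, 8.68% and 5.94% of all brain-expressed coding transcripts. AChE-2, LOC725960 and LOC725131 were highest in P24, whereas Y-f, LOC102656354 and LOC408695 were highest in P7.

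In P21 the tubule library went against the restriction. Here the members stood at a median of 25.4% of their level in the P21 brain, with quartiles of 24.1% and 28.7%, and 122 of the 158 lay between 20% and 30%. None was at or under 5%, where 0.0385% of the 2595 coding transcripts with at least 50 CPM in that brain were. The same-patriline figure for the tubules was 0.653%, 0.654%, 0.888%, 3.02% and 0.738% in P1, P7, P8, P11 and P24. The P21 tubule value was above all 5 other tubule libraries for 155 members, beside 39.0% of all brain-expressed coding transcripts. The 3 exceptions were LOC726331, LOC411104 and LOC100577636. With 1 library, this has no replicate check.

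The ratio to brain was higher where the usual tubule share was higher. Its median was 24.5% for the 91 members under 1% of brain in the tubules of the 5 other patrilines, 27.2% for the 41 members from 1% up to 3%, and 30.9% for the 26 members at 3% or more, which lay between 24.3% and 44.3%. AChE-2 was at 383 CPM in the P21 tubules, 29.7% of the P21 brain, against 4.65 to 8.48 CPM in the other 5. LOC409077 was at 2451 CPM, 24.4% of brain, and sGC-alpha1 was at 28.5 CPM, 23.9% of brain, against at most 0.469 CPM elsewhere. NOS was at 48.1 CPM and 23.6%. Of the named members with a clear tubule level in other patrilines, LOC725960 was at 1901 CPM and 29.2%. The 4 members that were high in the P11 brain had lower ratios, 9.21% for LOC406093, 12.4% for LOC406081, 14.0% for LOC550791 and 16.9% for LOC409096, and the other 154 lay between 19.5% and 44.3%. Of the gland and eye genes beside them, a selection is given. Mrjp1 was at 6.97%, Mrjp3 at 8.46%, Mrjp5 at 6.35%, Hbg3 at 8.12%, Lop1 at 13.4% and Blop at 16.4%. Other genes of the gland list were not all low in tubules. Over the 5 other patrilines Mrjp7 had medians of 280 CPM in brain and 328 CPM in tubules, and Mrjp8 27.5 and 134 CPM. Hbg2 had 3.22 and 1769 CPM, whereas Mrjp6 had 171 and 0.925 CPM. Uvop, another opsin, was at 148%, and it stood at 472 to 987 CPM in the tubules of the 5 other patrilines as well.

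The P21 brain held tubule transcripts in turn. The 29 tubule transcripts chosen for low brain and ventriculus levels stood in the P21 brain at a median of 22.5% of their own P21 tubule level, and in the other 5 patrilines at 0.30% to 0.476%. The ventriculus of P21 did not share it. There, 142 of the 158 members were at or under 5% of the P21 brain value, against 9.02% of the 2595 coding transcripts, and the median was 0.727%. How brain and tubule transcripts came to share these 2 libraries was not tested.

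**Figure D4:**
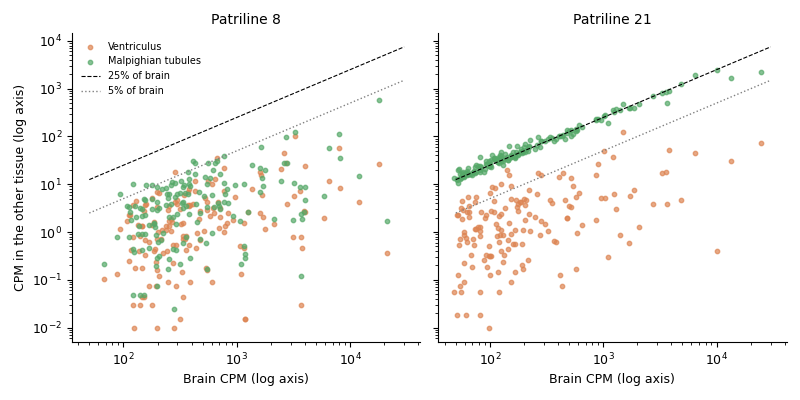
Members' CPM in the ventriculus and Malpighian tubules against their CPM in the brain of the same patriline, for P8 and for P21 (log axes, values at 0 drawn at the bottom). Lines mark 25% and 5% of the brain value. In P8 the tubule points scatter, with a median of 0.888%, and in P21 they follow the 25% line, with a median of 25.4%.

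The rule capped the medians of both the ventriculus and the tubules but did not use the difference between them, which was tested over 10 libraries of 5 patrilines. The members changed in both directions. Of 145 members that passed the filter on low counts, 38 were higher in the tubules and 32 higher in the ventriculus, with edgeR's quasi-likelihood test and Benjamini-Hochberg adjustment over all 8692 transcripts tested. These are 48.3% in all, against 61.5% of all transcripts tested, and by direction 26.2% and 22.1% against 31.2% and 30.4%. Since the cap left out transcripts high in either tissue, nothing is read from the members' shares against those of all transcripts. The median log2 ratio of tubules over ventriculus was 0.36 over the members and 0.02 over all. The other 13 members, sGC-alpha1 among them, were too low to be tested.

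The 2 directions depend on scaling and on 1 library. With library totals alone, the median ratio of all transcripts moved up by 1.15 on the log2 scale and 97 of 145 members (66.9%) were called higher in the tubules and 11 (7.59%) in the ventriculus, beside 76.5% and 8.08% of all transcripts tested (84.6% in either direction, against 74.5% of the members). With P21 kept in, 80 of 147 members (54.4%) were called higher in the tubules and 2 (1.36%) in the ventriculus, beside 34.4% and 29.8% of all (64.2% in either direction, against 55.8% of the members). In that fit 37 of the 38 tubule calls were kept, and of the 32 ventriculus calls 2 were kept and 14 changed sign. The levels below are CPM, and the log2 ratios are relative to the TMM scaling.

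The members with the largest called rise in the tubules were LOC726068, LOC725960, LOC410291, LOC413473 and LOC410229, all locus numbers with no role to give. LOC725960 was 2.9 higher on the log2 scale (SE 0.259, edgeR adjusted p = 6.79e-06), with every tubule value above every ventriculus value. LOC726068 (XM_001121838.5) was at 24.0, 2.57, 13.5, 41.5 and 25.8 CPM in the tubules of P1, P7, P8, P11 and P24 and at 0.671 to 2.16 CPM in the ventriculus. Its log2 ratio was 2.93 (SE 0.599, edgeR adjusted p = 0.00161), and the groups did not overlap. LOC413473 (XM_016912597.2) was at 4.09 to 10.7 CPM in the tubules and at 0.327 to 0.793 CPM in the ventriculus. All 5 kept their call under every alternative run.

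In the other direction were LOC551223, LOC411494, LOC411209, LOC408473 and Nrx-1. LOC411209 (XM_026440223.1) was at 9.06 to 18.4 CPM in the ventriculus and at 2.56 to 5.48 CPM in the tubules, a log2 ratio of -3.01 (SE 0.311, edgeR adjusted p = 1.67e-05). LOC408473 (XM_397501.6) was at 4.78 to 7.75 CPM and 1.08 to 2.41 CPM, with a log2 ratio of -2.97 (SE 0.296, edgeR adjusted p = 1.33e-05) that was -1.26 and no longer called with P21 kept in. Nrx-1, the neurexin, had a log2 ratio of -2.89 (SE 0.59, edgeR adjusted p = 0.00159), and its call was lost with P21 kept in, at -1.57. LOC411494 had -3.4 (SE 0.642, edgeR adjusted p = 9.70e-04) and reversed with P21, at 0.81. LOC551223 rests on a single library: it was at 47.7 CPM in the ventriculus of P11 and at 0 to 0.104 CPM in the other 4, and without P11 its log2 ratio went from -5.28 to 1.98.

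AChE-2, NOS, Adk1, Hiscl1 and Obp4 did not pass the test, with log2 ratios of 0.21, 0.43, -0.57, -0.41 and 0.79. Y-f was called higher in the ventriculus at -0.92 (SE 0.343, edgeR adjusted p = 0.0373), and with library totals alone it stood at 0.22. This call was lost without P8, P11 or P24, with edgeR adjusted p-values of 0.0885, 0.0674 and 0.171. Obp4 passed without P11, at 1.70 (edgeR adjusted p = 0.0373), and AChE-2 and NOS passed with library totals alone, at 1.38 and 1.60. With P21 kept in, AChE-2, NOS and Obp4 all passed, at 3.38, 1.96 and 2.34 (edgeR adjusted p = 0.0203, 0.0387 and 0.0489). A further member with 1 outlying pool was LOC411104 (XM_394578.6), noticed after its values were seen. It was at 266 CPM in the tubules of P11 and at 0.227 to 1.79 CPM in the other 4, and it was the 1 member whose brain and other libraries overlapped.

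**Figure D5:**
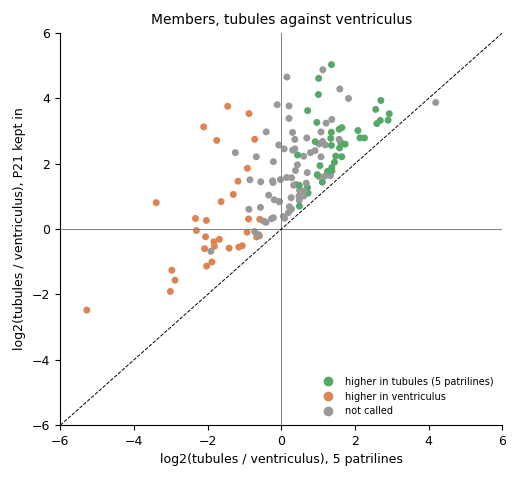
Log2 ratio of tubules over ventriculus for 145 members, from 5 patrilines (x axis) and with P21 kept in (y axis). Colours give the call from 5 patrilines, 38 higher in tubules and 32 higher in ventriculus, and the dashed line marks equal values. With P21 nearly all points lie above the line, and 14 of those called higher in ventriculus lie above 0.

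The genes of the members were long. Their median span in the Amel_HAv3.1 annotation was 9899 bases, against 3308 bases for other brain-expressed coding genes and 3995 bases for all coding genes. A span over 20000 bases was found for 56 members, 35.4%, against 6.87% of the other brain-expressed genes and 14.6% of all coding genes. One coding transcript only was annotated for 81.6% of the member genes, 94.6% of the other brain-expressed genes and 52.7% of all coding genes, in counts that favour genes without shared fragments. These values are a description, with no test.

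For 127 members the gene had no other transcript in the files, and for 31 it had. In these 31 the gene's summed counts hold the member, which made up a median of 99.2% of the gene's brain counts. The sum is therefore no separate check. It was at most 5% of brain in both tissues for 30 of the 31. The exception was LOC100577364, whose member XM_016914729.2 was at 379 CPM in brain, while XM_026444109.1 of the same gene was at 432 CPM in brain and at 139 CPM in the tubules. LOC409957 carried 23.9% of its gene's brain counts on the member, and the most abundant other transcript was the non-coding XR_003304637.1 at 363 CPM. LOC100577364 and LOC409957 were the only 2 of the 31 genes with another transcript of at least 50 CPM in each brain pool. Summing per gene gave 160 genes, of which 157 were the same. For the 127 members without another transcript, the sum is the member itself. Amih, LOC550899 and SIFR were gained.

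Among the protein-coding genes, 8 pairs of members were direct neighbours. LOC408695 and LOC408696 had brain medians of 5903 and 3709 CPM, and LOC408722 and LOC410905 had 8000 and 1639 CPM. In the latter pair both kept a tubule level, at 56.7 and 47.5 CPM. The strand used in counting is not given, so neighbours that overlap could share fragments.

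At the edges of the rule, LOC409957 and LOC551223 passed with lowest brain values of 50.6 and 50.7 CPM, and LOC411347 and LOC100578112 missed with 49.2 and 49.1 CPM. At the 5% limit, LOC413784 and LOC412439 passed with 4.98% and 4.86% of brain in the tubules. LOC409278 and Hsp90, a heat shock chaperone, missed with 5.04% and 5.18%.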

How the data were processed

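RNA sequencing was done on 18 pooled libraries. The authors used Trimmomatic for trimming, STAR for alignment and HTSeq for counting, and deposited raw counts per transcript, without normalization. Tool versions and strand setting: not given in the sources used here. The study names the genome Amel_4.5, whereas 27887 of 28396 features matched the RefSeq table of Amel_HAv3.1, which was used for names and gene spans, so no coordinates are given. HTSeq's 5 classes of uncounted fragments were left out.

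Members and lists were chosen with earlier results of these data known. Members named are those with a symbol in a list, the 10 most abundant, the 5 lowest and 5 highest in brain CV, the 5 largest called changes each way and those at the limits; the other members with a symbol or synonym were named after their values were seen. Ventriculus and tubules were compared with edgeR 4.0.16 (R 4.3.3; filterByExpr, TMM, quasi-likelihood test, threshold 0.05), with DESeq2 1.42.0 as an alternative; the procedure was tested on simulated data. Pools are single, so p-values cover the spread between patrilines. Each patriline's 3 tissues were dissected from the same bees, which pairs the libraries: deviations of ventriculus and tubules correlated at 0.127 to 0.479 within patrilines, although P8 (0.135) and P24 (0.127) correlated more highly with another patriline (0.220 and 0.234). At this depth, 3 counts are 0.0341 to 0.0755 CPM, for counting error only. Groups by tolerance are not in the labels and were not compared. Protein and promoter sequences were not analysed here.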

Additional observations from a re-analysis of the deposited data

Results flagged for a closer look

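Sets of values were checked for a single library far from the others (Dixon's ratio, which chance alone passes in about 1 of 20 sets). Leaving aside the 10 members named for their spread in brain, 9 of 25 sets were picked out, and P11 or P21 was the library each time. These sets are not independent, since they share libraries. In the P21 brain, tubule transcripts stood at 20.7% of their tubule median. In the P21 tubules, the members stood at 11.6% of their brain median and the Mrjp transcripts took 1.39% of counts. The members' level there was also 25.4% of that in the P21 brain, in a library that the rule does not use.

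In the P11 brain, 6 of 17 named members were far below the other pools, at 8841 CPM for LOC409077, 6449 CPM for LOC725960, 3632 CPM for LOC408722, 204 CPM for NOS, 132 CPM for sGC-alpha1 and 123 CPM for Adk1. The check was not run over all brain-expressed coding transcripts, 90.0% of which were lowest in P11. Whether this count is particular to members was thus not tested. Of the members named for their spread, the same check picked out LOC724405, low at 1064 CPM, and LOC409096, LOC406093, LOC550791 and LOC406081, high at 2989, 39787, 7291 and 12580 CPM. For the latter 4, named for the highest spread, this follows from the choice and is given as a value only.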

How the results depend on the processing

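The number of members was 158 and lay between 107 and 233 under every alternative. It was 107 at a 2% limit, 212 at a 10% limit, 233 at a minimum of 20 CPM, 107 at 100 CPM, 108 with TMM-scaled CPM, 183 without the Mrjp genes, 146 with P21 kept in (all of them members) and 124 with the highest library in place of the median. Without 1 replicate it lay between 151 and 217, the highest without P11, where 157 of the 158 members were kept. Library size alone gave 108 member calls between ventriculus and tubules in place of 70, of which 97 were higher in tubules and 11 in ventriculus (74.5% of members in all, beside 84.6% of all transcripts). With P21 these were 80 and 2 (55.8% in all, beside 64.2%). Without 1 replicate the calls lay between 53 and 71 for members, beside 4640 to 5218 for all transcripts tested. Those higher in tubules lay between 26 and 40 for members, beside 2306 to 2649 for all. Those higher in ventriculus lay between 26 and 31, beside 2334 to 2569. With patriline as a replicate block 80 of 145 members were called, beside 5537 of all 8692 transcripts tested. The block changed the call of 1 named member, LOC551223, from -5.28 to 0.064. Without 1 replicate LOC551223 lay between -5.74 and 1.98, the latter without P11. LOC411494 stood at 0.81 with P21, and Y-f at 0.22 with library size alone and at 1.86 with P21. DESeq2 called 78 of 145 members, beside 5663 of all 8692 transcripts tested, and gave no adjusted p for LOC551223. The median brain CV of 0.323 was 0.249 without the Mrjp genes and 0.211 with TMM scaling, and without 1 replicate it lay between 0.112 and 0.372. The P11 brain level of 44.1% was 59.6% without the Mrjp genes and 69.0% with TMM scaling, and lay between 43.4% and 45.5% without another replicate. Depth did not limit the brain values, while 13 members were too low in the other tissues to be tested.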
